A study of Mus musculus with 6 samples.

Results

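Arginase and the polyamine enzymes were examined as 8 genes listed by symbol: Arg1, Odc1, Srm, Sms, Sat1, Amd1, Oaz1 and Azin1. Of these, 6 were found among the 14416 genes of the deposited count table, and all 6 passed the filter on low counts. Amd1 and Oaz1 were not analysed here. The RNA came from lung Lin-Thy1.2+ innate lymphoid cells (ILCs), lymphocytes that lack rearranged antigen receptors, of C57BL/6J mice. There were 3 libraries labelled WT and 3 labelled RBM3KO, for a knockout of the cold-inducible RNA-binding protein RBM3. Both genotypes received Alternaria alternata, an allergenic mould, at 25 µg, 3 times over 7 days, so the comparison is between challenged animals and holds no unchallenged group. How the knockout allele was made, whether it acts in all cells, whether animals were pooled, and the age of the mice are details that the labels used here do not give.

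Arginase 1 splits arginine into urea and ornithine. Ornithine decarboxylase (Odc1) turns ornithine into putrescine, and spermidine synthase (Srm) and spermine synthase (Sms) then add aminopropyl groups that come from S-adenosylmethionine through its decarboxylase (Amd1). Antizyme (Oaz1) binds ornithine decarboxylase and sends it to the proteasome, the antizyme inhibitor (Azin1) releases it, and spermidine/spermine acetyltransferase (Sat1) starts the way back from the higher polyamines. Polyamines are needed for growth and translation, and lung group 2 ILCs are known for their high arginase 1 content.

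Rbm3 had between 3649 and 7473 counts in the WT libraries and between 235 and 406 in the RBM3KO libraries, so each library matched its label. Scaled for library size, the RBM3KO level of Rbm3 RNA was 0.0913 of the WT level. RBM3 protein was not measured here. Library totals lay between 7498247 (RBM3KO replicate 3) and 25068137 counts (WT replicate 3). All 14 listed markers of group 2 ILCs had counts, with a summed level from 6234 to 7506 CPM (counts scaled so that every library has the same total) in WT and from 8184 to 8803 CPM in RBM3KO. Of the 14, 9 were higher in RBM3KO without overlap, beside 8.43% of all tested genes. The test was passed by 0 of them, beside 1.25% of all tested genes. Markers of macrophages, monocytes and dendritic cells summed to between 64.9 and 703 CPM in WT and between 55.9 and 458 CPM in RBM3KO. Chi3l3, at 2.74 to 492 CPM, was the highest of these in 4 of 6 libraries, and Xcr1 in WT replicate 1 and RBM3KO replicate 1. Markers of cycling cells summed to between 4450 and 5387 CPM in WT and between 2810 and 2968 CPM in RBM3KO. Of these 22 markers 14 were lower (edgeR, adjusted p under 0.05), beside 1.25% of all tested genes called in either direction. T cell markers summed to between 469 and 582 CPM in WT and between 539 and 700 CPM in RBM3KO. Lat (260 to 346 CPM) and Cd3g (145 to 313 CPM) were the highest of these in every library. Of 8 tested, 1 (Lat) was higher without overlap, beside 8.43% of all tested genes, and 0 passed the threshold. By estimate 3 of the 8 were higher and 5 lower in RBM3KO, with a median log2 fold change of -0.27. B cell markers summed to between 65.1 and 90.2 CPM in WT and between 40.4 and 44.5 CPM in RBM3KO. Of 7 tested, 4 were lower without overlap, beside 10.5% of all tested genes, and 0 passed the threshold. Markers of epithelium, stroma and endothelium summed to 410 CPM in RBM3KO replicate 3, where Sftpc, a surfactant protein gene of alveolar epithelium, stood at 248 CPM, and to between 62.5 and 175 CPM in the other libraries. Markers of granulocytes and mast cells summed to between 24.3 and 33.2 CPM in WT and between 16.9 and 31.1 CPM in RBM3KO. Of 4 tested, 0 separated the genotypes without overlap, beside 18.9% of all tested genes in either direction, and 0 passed the threshold. The part of the T cell, B cell, epithelial, granulocyte and mast cell markers in the values below was not tested.

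None of the 6 measured genes changed between the genotypes at an adjusted p under 0.05 over all genes (edgeR's quasi-likelihood test). Of all 11382 tested genes 142 passed, which is 1.25%, a count that fell to between 12 and 99 when 1 library was left out. At an unadjusted p under 0.05, 3 of the 6 passed (Arg1, Srm and Sat1), where 12.3% of all tested genes did. At an adjusted p under 0.05, DESeq2 on the same genes called 1 of the 6 (Arg1), beside 3.64% of all tested genes. Arg1, Srm and Sat1 were also the ones whose WT and RBM3KO libraries did not overlap, with Arg1 and Sat1 higher and Srm lower in RBM3KO. Of all tested genes, 8.43% were higher in RBM3KO without overlap and 10.5% lower. The median log2 fold change of the 6 genes was 0.13, beside 0.01 over all tested genes, and all fold changes are RBM3KO relative to WT. In such bulk samples fewer cells of a type and less RNA per cell cannot be told apart.

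**Figure D1:**
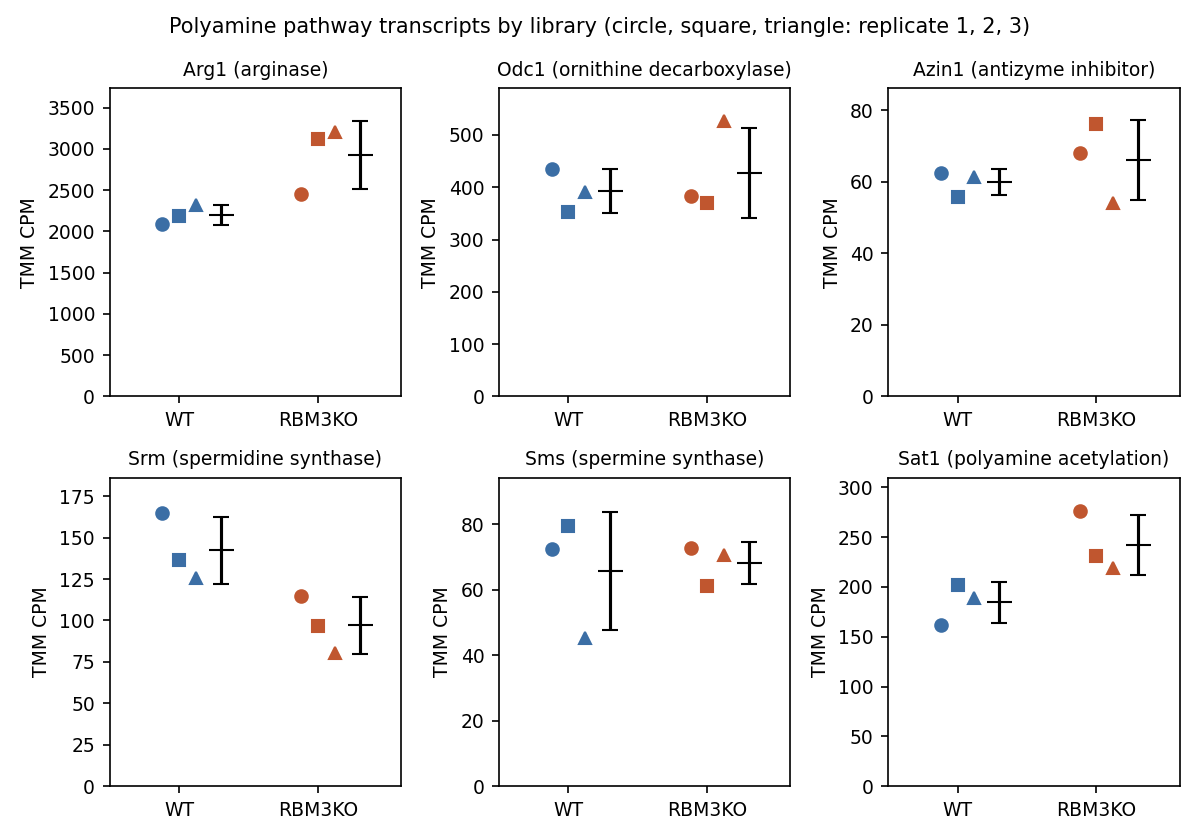
Level of each gene (CPM scaled by edgeR's TMM library factors, axes from 0) in each library, WT in blue and RBM3KO in orange, with the mean and SD of 3 libraries as a black bar. The RBM3KO points of Arg1 (2448 to 3202) and Sat1 (219 to 276) lie above all WT points, those of Srm (80.2 to 115) lie below, and the genotypes overlap for Odc1, Azin1 and Sms.

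Arg1 (chromosome 10, 24915221 to 24927484, minus strand, mm10), the gene of the enzyme that opens the pathway, was among the most abundant transcripts of these cells. Its mean level, in CPM scaled by edgeR's TMM factors, ranked 25 of 11382 tested genes. The WT libraries stood at 2084, 2191 and 2317 CPM and the RBM3KO libraries at 2448, 3115 and 3202 CPM. The lowest RBM3KO library, replicate 1, lay just above the highest WT library, and the other two RBM3KO libraries lay well above it. The means were 2197 ± 117 CPM in WT and 2922 ± 412 CPM in RBM3KO (SD, n = 3 each), a 1.33-fold difference. The log2 fold change was 0.41 (SE 0.10, 95% interval 0.18 to 0.64, edgeR adjusted p = 0.105), which did not pass the threshold.

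The Arg1 call depended on the test, on the filter on low counts and on 1 library. It passed with DESeq2 (log2 fold change 0.42, DESeq2 adjusted p = 0.00385), in edgeR with no filter on low counts (edgeR adjusted p = 0.0473) and without RBM3KO replicate 1 (log2 fold change 0.52, edgeR adjusted p = 0.0284). Over its 15 alternatives the adjusted p ran from 0.00385 to 0.399 and the estimate stayed above 0. The macrophage, monocyte and dendritic cell markers summed to 64.9, 383 and 703 CPM in WT replicates 1, 2 and 3 and to 55.9, 458 and 275 CPM in RBM3KO replicates 1, 2 and 3. In each genotype the library with the lowest sum also had the lowest Arg1, while the sums overlapped between the genotypes. In WT both rose from replicate 1 to 3, Arg1 from 2084 to 2317 CPM. In RBM3KO the highest sum was in replicate 2 (Arg1 3115 CPM) and the highest Arg1 in replicate 3 (3202 CPM). Of 19 markers counted in that list, 12 were tested and 0 passed. In RBM3KO replicate 1 Csf1r, Mrc1, Cd14, Cd68 and Itgax were among the markers at 0, and Xcr1 was the highest at 44.6 TMM-scaled CPM. Of the 14 group 2 ILC markers, 13 had an estimate above 0, as Arg1 had, and 0 passed. The genotypes did not overlap for 9 of them, all higher in RBM3KO, beside 8.43% of all tested genes. The part of either marker list in the Arg1 level was not tested.

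Arg2, the mitochondrial arginase, had 7 counts over the 6 libraries, all in WT replicate 3, and did not pass the filter. Nos2, the inducible nitric oxide synthase that uses the same substrate, had 29 counts in all.

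Odc1 (chromosome 12, 17544794 to 17551505, plus strand), the enzyme that commits ornithine to polyamines, did not separate the genotypes. Its level was 435, 352 and 391 CPM in WT and 384, 370 and 527 CPM in RBM3KO. The highest value was that of RBM3KO replicate 3, the library with the fewest counts and the highest epithelial marker sum (410 CPM), and the other two RBM3KO libraries lay inside the WT range. The means were 393 ± 41.8 and 427 ± 86.7 CPM (SD, n = 3 each). The log2 fold change was 0.12 (SE 0.14, 95% interval -0.19 to 0.43, edgeR adjusted p = 0.840), and it was -0.058 without RBM3KO replicate 3.

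The promoters of Odc1 and Sat1 are shown because these genes encode the enzymes at the entry into and the way back from the polyamines, and only Sat1 separated the genotypes. The windows run from 250 bases before to 50 bases after the start in RefSeq (GRCm38.p6, the assembly of mm10), 5′ to 3′ on the gene's strand, chr12:17544623-17544922 on the plus strand for Odc1 and chrX:155216400-155216699 on the minus strand for Sat1. Capitals mark the GC box GGGCGG or its reverse complement CCGCCC, a sequence known to bind Sp1-type factors.
Odc1 promoter: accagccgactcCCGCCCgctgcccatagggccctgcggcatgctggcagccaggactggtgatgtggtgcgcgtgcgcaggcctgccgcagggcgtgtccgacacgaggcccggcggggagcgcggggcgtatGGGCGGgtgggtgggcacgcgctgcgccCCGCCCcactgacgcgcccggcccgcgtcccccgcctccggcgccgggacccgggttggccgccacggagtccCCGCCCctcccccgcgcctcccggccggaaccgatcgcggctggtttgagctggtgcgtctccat
Sat1 promoter: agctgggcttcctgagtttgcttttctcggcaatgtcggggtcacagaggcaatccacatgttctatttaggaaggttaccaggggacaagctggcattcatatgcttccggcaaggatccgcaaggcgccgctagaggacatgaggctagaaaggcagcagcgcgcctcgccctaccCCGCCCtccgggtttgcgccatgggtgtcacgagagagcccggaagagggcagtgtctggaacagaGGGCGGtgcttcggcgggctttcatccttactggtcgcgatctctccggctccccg
The Odc1 window held 4 GC boxes and the Sat1 window 2, and 35.7% of 32851 promoter windows of this length held at least 1. The E-box CACGTG, which MYC and MAX bind, was in neither of the pair and in 7.15% of all windows. Of the 6 measured genes 3 matched a window (Odc1, Sat1 and Sms), and 1 of the Sms windows held the E-box. These matches describe the letters of the windows.

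Azin1 (chromosome 15, 38487427 to 38519266, minus strand), a relative of ornithine decarboxylase without its activity, which frees the enzyme from antizyme, stood at 62.5, 55.8 and 61.4 CPM in WT. In RBM3KO it stood at 68.2, 76.1 and 54.1 CPM. RBM3KO replicates 1 and 2 lay above every WT library and replicate 3 below every one of them. The log2 fold change was 0.14 (SE 0.18, 95% interval -0.24 to 0.53, edgeR adjusted p = 0.848). The coding sequences of Odc1 (1383 bases) and Azin1 (1344 bases) matched at 61.6% of 1332 aligned bases. Their longest shared run, shown because it bears on whether reads can be assigned to one of them, was 17 bases at positions 649 to 665 of both, counted from the A of the start codon.
Shared run of Odc1 and Azin1: tgtgtgtttgacatggc
Within a library, the log2 ratio of Odc1 to Azin1 counts was 2.80, 2.66 and 2.67 in WT and 2.49, 2.28 and 3.28 in RBM3KO. The groups overlapped, with RBM3KO replicate 3 the highest and the other two RBM3KO libraries the lowest (difference of means -0.02, two-sided exact permutation p = 1, adjusted over 2 ratios p = 1).

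Srm (chromosome 4, 148591503 to 148594993, plus strand), which makes spermidine from putrescine, was the one gene of the 6 with a lower estimate in RBM3KO. It stood at 165, 136 and 126 CPM in WT and at 115, 96.6 and 80.2 CPM in RBM3KO. The highest RBM3KO library lay below the lowest WT library. The means were 142 ± 20.3 and 97.1 ± 17.2 CPM (SD, n = 3 each), so RBM3KO stood at 0.684 of WT. The log2 fold change was -0.55 (SE 0.16, 95% interval -0.90 to -0.19, edgeR adjusted p = 0.167), and it missed the threshold in all 15 alternatives, with adjusted p between 0.0626 and 0.503. The cycling-cell marker sums given above were also lower in every RBM3KO library than in every WT library. Within WT these sums fell from replicate 1 to 3 (5387, 4578 and 4450 CPM), as Srm did. Within RBM3KO the order differed, with sums of 2810, 2968 and 2844 CPM in replicates 1, 2 and 3, where Srm fell from replicate 1 to 3. The part of these markers in the Srm level was not tested.

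Sms (chromosome X, 157443855 to 157492287, minus strand), which makes spermine from spermidine, did not separate the genotypes. It stood at 72.3, 79.4 and 45.2 CPM in WT and at 72.8, 61.0 and 70.7 CPM in RBM3KO. WT replicate 3 was the lowest of the 6 libraries and the RBM3KO libraries lay within the WT range. The log2 fold change was 0.06 (SE 0.21, 95% interval -0.42 to 0.53, edgeR adjusted p = 0.965), and it was -0.16 without WT replicate 3. The annotation names 1 pseudogene of Sms, which is not among the genes analysed here, so reads from it could be counted to Sms or lost.

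Sat1 (chromosome X, 155213132 to 155216449, minus strand), whose product acetylates spermidine and spermine for export or oxidation, stood at 162, 202 and 189 CPM in WT and at 276, 231 and 219 CPM in RBM3KO. All 3 RBM3KO libraries lay above all 3 WT libraries, with a narrow gap between WT replicate 2 and RBM3KO replicate 3. The means were 184 ± 20.6 and 242 ± 30.0 CPM (SD, n = 3 each), a 1.31-fold difference. The log2 fold change was 0.39 (SE 0.13, 95% interval 0.11 to 0.67, edgeR adjusted p = 0.205), and it did not pass in any of 15 alternatives (adjusted p from 0.102 to 0.555).

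**Figure D2:**
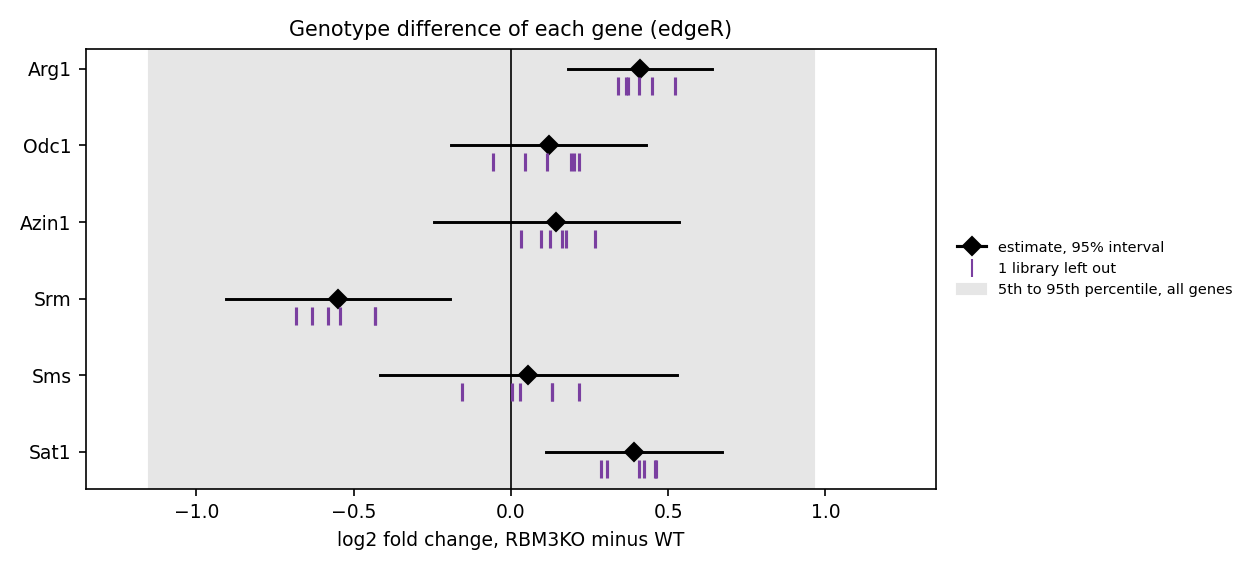
Log2 fold change (RBM3KO minus WT) of the 6 measured genes with its 95% interval, the estimates with 1 library left out as purple ticks, and the 5th to 95th percentile of all tested genes (-1.15 to 0.96) in grey. The intervals of Arg1, Sat1 and Srm do not include 0 before adjustment over all genes, those of Odc1, Azin1 and Sms do, and every estimate lies inside the grey range.

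Sat1 and Srm, the acetylating and the spermidine-forming enzyme, had estimates of opposite sign and neither overlapped between the genotypes. Their ratio within a library therefore had to separate the genotypes. The two-sided exact permutation test could thus only give its smallest possible p (p = 0.1, adjusted over 2 ratios p = 0.2), and the ratio is given as a description. The ratio of Sat1 to Srm counts, which needs no scaling between libraries, was 0.982, 1.48 and 1.5 in WT. In RBM3KO it was 2.41, 2.39 and 2.73. Sat1 had fewer counts than Srm in WT replicate 1 and more in each other library, and every RBM3KO ratio was above every WT ratio. On the log2 scale the means were 0.38 ± 0.35 and 1.32 ± 0.11 (SD, n = 3 each), a difference of 0.95. The difference lay between 0.75 and 1.05 when 1 library was left out.

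**Figure D3:**
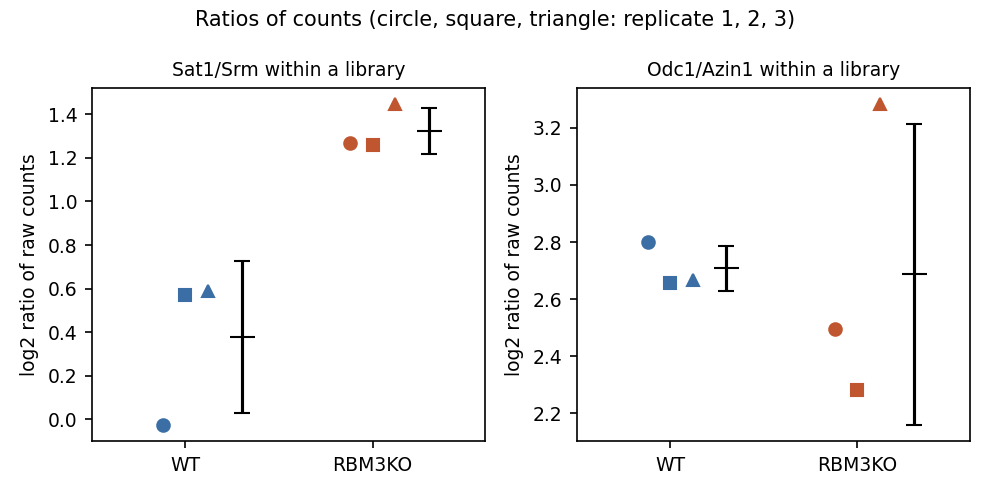
Log2 ratio of raw counts of Sat1 to Srm and of Odc1 to Azin1 in each library, WT in blue and RBM3KO in orange, with the mean and SD of 3 libraries as a black bar (axes do not start at 0). The Sat1 to Srm ratios of RBM3KO (1.26 to 1.45) lie above those of WT (-0.03 to 0.59), while the Odc1 to Azin1 ratios overlap.

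Levels were compared between genes as TMM CPM per kb of transcript. In WT the order was Arg1 (1488 ± 79.1), Sat1 (206 ± 23.0), Odc1 (178 ± 18.9), Srm (106 ± 15.1), Sms (17.7 ± 4.85) and Azin1 (12.3 ± 0.744), each as mean and SD over 3 libraries in CPM per kb. Sat1 and Odc1 overlapped in WT, at 181 to 226 and 159 to 197 CPM per kb, as did Sms and Azin1. The other neighbours in WT did not overlap. In RBM3KO the order was the same, at 1978 ± 279, 270 ± 33.5, 193 ± 39.3, 72.6 ± 12.8, 18.3 ± 1.70 and 13.6 ± 2.28 CPM per kb. There Sat1 (244 to 308) and Odc1 (168 to 239 CPM per kb) no longer overlapped, and the other neighbours did not overlap either, the lowest Sms library standing at 16.4 and the highest Azin1 library at 15.6 CPM per kb. These comparisons between genes were not tested.

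**Figure D4:**
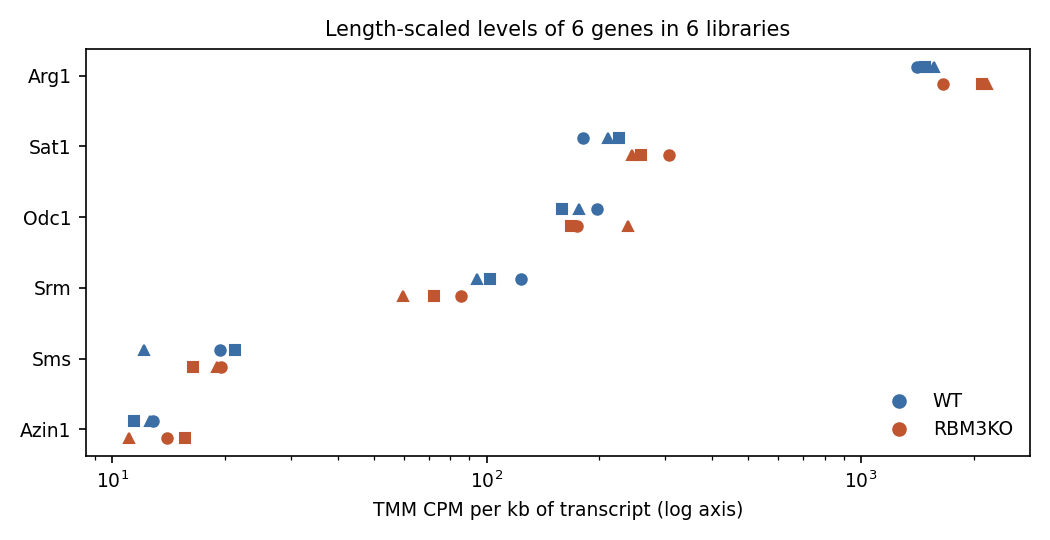
TMM CPM per kb of transcript (log axis) of the 6 genes, each point 1 library (circle, square and triangle for replicates 1, 2 and 3), WT in blue above RBM3KO in orange. Arg1, at 1411 to 2168, stands above every other gene, and Sms and Azin1 form the lowest pair at 11.1 to 21.3.

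The other genes of arginine and polyamine metabolism were read from 5 lists, in which 44 genes were tested and 0 passed over all genes in either direction. Of 13 tested genes of arginine metabolism, 3 were higher and 1 lower in RBM3KO without overlap, beside 8.43% and 10.5% of all tested genes. The median log2 fold change of the list was 0.13. That median had no fixed sign, lying between -0.044 (without RBM3KO replicate 2) and 0.16 with 1 library left out and at -0.016 with limma-voom. Aldh18a1, which makes the proline and ornithine precursor pyrroline-5-carboxylate from glutamate, had 153 ± 13.4 and 137 ± 11.6 CPM, and Oat, the ornithine aminotransferase, 151 ± 14.0 and 135 ± 26.5 CPM (SD, n = 3 each). The separated genes, named after their values were seen, were Asl, Ckb, Pycr1 and Gatm. Asl, the argininosuccinate lyase that regenerates arginine, stood at 65.9, 68.8 and 80.2 CPM in WT and at 116, 85.3 and 91.4 CPM in RBM3KO (a log2 difference of 0.44, SE 0.16, edgeR adjusted p = 0.273). Gatm, which moves the amidino group of arginine into the creatine pathway, was low throughout, at 9.24, 10.8 and 10.4 CPM in WT and 2.81, 0.119 and 3.37 CPM in RBM3KO (a log2 difference of -2.30, SE 0.87, edgeR adjusted p = 0.299). Ckb, a creatine kinase, differed by 0.53 on the log2 scale (SE 0.19, edgeR adjusted p = 0.25) and Pycr1, at means of 1.42 and 3.89 CPM, by 1.45 (edgeR adjusted p = 0.586).

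Of 9 tested genes for the transport of cationic amino acids and polyamines, 2 were lower without overlap (Slc25a15 and Atp13a3), beside 10.5% of all tested genes. The median log2 fold change of the list was -0.51. The median ranged from -0.86 (without RBM3KO replicate 2) to -0.14 (without WT replicate 3) with 1 library left out, with -0.26 without RBM3KO replicate 1 and -0.85 without WT replicate 2, and it was -0.070 among genes of at least 10 CPM in 3 libraries and -0.23 at equal depth. Slc3a2, the heavy chain shared by several amino acid exchangers, had 439 ± 28.4 and 450 ± 21.3 CPM, Slc7a6, a cationic amino acid exchanger, 87.2 ± 8.77 and 95.4 ± 19.5 CPM, and Atp13a2, a lysosomal polyamine exporter, 67.2 ± 8.72 and 59.2 ± 8.73 CPM (SD, n = 3 each). Slc25a15, the mitochondrial ornithine carrier, was named after its values were seen. It stood at 24.5, 22 and 32.9 CPM in WT and at 4.11, 5.55 and 14.1 CPM in RBM3KO, so the highest RBM3KO library was below the lowest WT library. Its log2 fold change was -1.77 (SE 0.46, 95% interval -2.78 to -0.75, edgeR adjusted p = 0.116). It passed with DESeq2 (adjusted p = 0.0105), with limma-voom (adjusted p = 0.0276), with the replicate block (edgeR adjusted p = 0.0480) and without RBM3KO replicate 3 (log2 fold change -2.45, edgeR adjusted p = 0.0262). Over its alternatives the adjusted p ran from 0.0105 to 0.311. Atp13a3, a polyamine-transporting ATPase also named after its values were seen, had means of 10.4 and 4.95 CPM (edgeR adjusted p = 0.439).

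Of 4 further polyamine genes tested, Smox, the spermine oxidase, was higher in RBM3KO without overlap, as were 8.43% of all tested genes. Smox stood at 49.7, 46.4 and 47.1 CPM in WT and 66.6, 56.7 and 59.6 CPM in RBM3KO (a log2 difference of 0.35, SE 0.17, edgeR adjusted p = 0.429). The second antizyme gene Oaz2 had 80.8 ± 13.2 and 76.4 ± 14.9 CPM and Paox, which oxidises acetylated polyamines, 17.5 ± 1.75 and 17.2 ± 8.53 CPM (SD, n = 3 each). The median of the 4 was -0.05, and it was 0.13 without RBM3KO replicate 3.

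The methionine and methylthioadenosine cycle supplies S-adenosylmethionine and recycles the by-product of spermidine and spermine synthesis. Of its 14 tested genes, 1 was lower without overlap, beside 10.5% of all tested genes, and the median was -0.10. The 1 gene was Ahcyl1, a relative of the S-adenosylhomocysteine hydrolase, at means of 38.9 and 21.9 CPM (edgeR adjusted p = 0.305). Mat2a, the S-adenosylmethionine synthetase, had 397 ± 41.2 and 419 ± 47.1 CPM, and its regulatory subunit Mat2b 216 ± 15.4 and 205 ± 30.4 CPM. Got2, an aspartate aminotransferase, had 254 ± 25.5 and 233 ± 17.0 CPM (SD, n = 3 each).

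The hypusine list holds the use of spermidine for the modification of the translation factor eIF5A. Of its 4 tested genes, 1 was lower (Eif5a) and 1 higher (Dhps) in RBM3KO without overlap, beside 10.5% and 8.43% of all tested genes. Eif5a itself stood at 3047, 2807 and 2992 CPM in WT and at 2528, 2530 and 2362 CPM in RBM3KO. All 3 RBM3KO libraries lay below all 3 WT libraries by a small margin (log2 fold change -0.25, SE 0.07, 95% interval -0.41 to -0.09, edgeR adjusted p = 0.158). DESeq2 called Eif5a (DESeq2 adjusted p = 0.0274), beside 3.64% of all tested genes that it called. Dhps, the deoxyhypusine synthase, had 63.9 ± 8.05 and 73.1 ± 2.69 CPM, with no overlap and RBM3KO higher by the narrow step from 70.0 to 70.1 CPM. Dohh, the deoxyhypusine hydroxylase, had 99.5 ± 4.80 and 93.1 ± 10.6 CPM (SD, n = 3 each). The median of the 4 genes was -0.05, and it was 0.081 without RBM3KO replicate 1 and -0.23 without RBM3KO replicate 2.

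**Figure D5:**
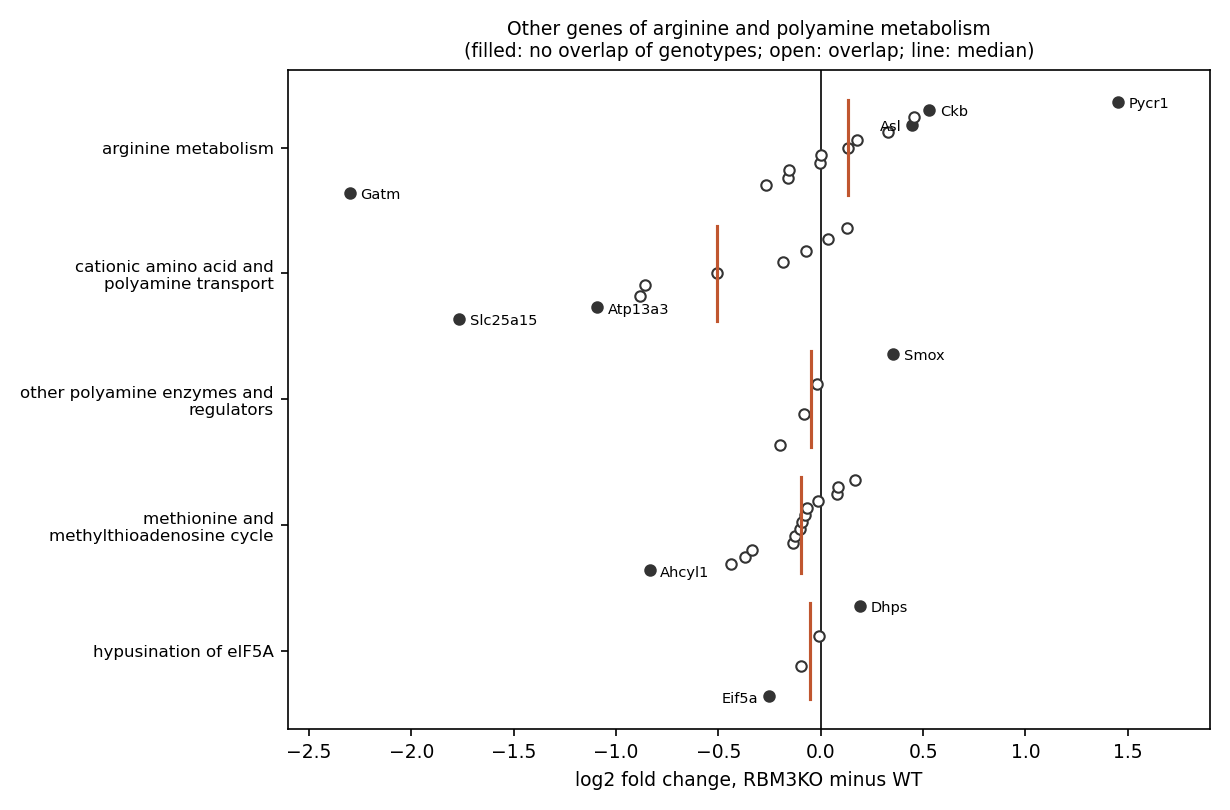
Log2 fold change (RBM3KO minus WT) of the 44 tested genes in 5 lists, filled where the WT and RBM3KO libraries do not overlap and open where they do, with the median of each list as a vertical line. The medians lie between -0.51 and 0.13, and the named filled points include Slc25a15 at -1.77 and Smox at 0.35.

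Among 7166 genes with a mean of at least 10 CPM, predicted genes left out, those whose levels followed Arg1 most closely over the 6 libraries were Sec11c, a signal peptidase subunit (Pearson's r = 0.987, Spearman's rho = 0.886), Kif13b, a kinesin (0.985 and 0.943), and Mob1a, a Hippo pathway kinase activator (0.974 and 0.943). For Odc1 they were Rcan1, a calcineurin regulator (0.975 and 0.943), Cdkal1, a tRNA-modifying enzyme (0.972 and 0.943), and Atp5e, an ATP synthase subunit (0.972 and 0.943). With 6 libraries that share the genotype split and their depths, 76 genes had an r above 0.9 with Arg1 and 33 with Odc1, so these values are descriptions of a short series of points.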

How the data were processed

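Lung Lin-Thy1.2+ ILCs were profiled by Smart-seq2 with Nextera XT libraries, per the labels' protocols, in 3 WT and 3 RBM3KO samples. The table that the authors deposited holds unnormalised whole-number counts, 1 column a sample. The tools listed in the submitters' processing notes, with no role or order, are STAR 2.6.1c, featureCounts 1.6.5 and Bowtie 1.0.0, and the build is mm10. Annotation, strand setting and read filters: not given in the sources used here. Without molecular identifiers PCR copies are counted, and without strand reads of overlapping genes cannot be told apart. Replicate columns were not identical (chi-square per degree of freedom at least 21.5 between any pair). Separate animals are not named in the labels, so the p-values reflect the spread among these samples only, and that spread may be technical.

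Counts were filtered with edgeR's filterByExpr (11382 of 14416 genes kept), scaled by TMM and compared with edgeR 4.0.16 (R 4.3.3, robust quasi-likelihood fit, no covariate), with Benjamini-Hochberg adjustment over all tested genes and a threshold of 0.05. SE is the log2 fold change over the square root of F, and 95% intervals are unadjusted. Alternatives included DESeq2 1.42.0 and limma 3.58.1. The fit was tested on simulated data. Coordinates and transcript lengths (of each gene's basic transcript with most coding bases) came from GENCODE M21. From each list the text names genes past the threshold or, with none, the 3 with the highest mean, and the 3 genes most like Arg1 and Odc1 by Pearson's r. Some genes that the rule names are not reported here. The members and lists were chosen with earlier results of these data known. A planned ratio of Odc1 to Oaz1 was not computed because Oaz1 was not analysed here.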

Additional observations from a re-analysis of the deposited data

How the results depend on the processing

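Of 15 alternatives per gene, Srm, Sat1 and Azin1 kept the direction and stayed above the threshold of adjusted p in all. Arg1 kept its direction in all 15 and passed in 3, with DESeq2 (log2 fold change 0.42), with no filter (0.41) and without RBM3KO replicate 1 (0.52). Over the 6 fits with 1 library left out, its log2 fold change ran from 0.34 to 0.52. The count of called genes among the 6 genes was therefore 1 with DESeq2, 1 with no filter and 0 to 1 with 1 library left out. Of all tested genes, 3.64% were called with DESeq2, 1.32% with no filter and 0.101% to 0.834% with 1 library left out. Leaving out 1 library moved Odc1 between -0.058 and 0.22 and Sms between -0.16 and 0.21. Over all genes 142 were called, 414 with DESeq2 and 12 to 99 with 1 library left out, where a group has only 2 samples (without WT replicates 1, 2 and 3, 12, 53 and 67, and without RBM3KO replicates 1 and 2, 78 and 41). In the transport list 1 gene (Slc25a15) was called with DESeq2, with limma-voom, with the replicate block and without RBM3KO replicate 3 (range 0 to 1). In the hypusine list 1 gene (Eif5a) was called with DESeq2. Of all tested genes, limma-voom called 1.74%, the replicate block 1.31% and the fit without RBM3KO replicate 3 0.834%. With 1 library left out, the list medians lay from -0.044 to 0.16 for arginine metabolism, -0.86 to -0.14 for transport, -0.098 to 0.13 for other polyamine genes and -0.16 to -0.064 for the methionine cycle. The hypusine median lay between -0.23 and 0.081 with 1 library left out, and the cause was not tested. With the replicate block 149 genes were called and 0 of the 6. Same-numbered libraries deviated together only weakly (correlations 0.0555, 0.0574 and 0.00531), not each best with its own number, so the numbers were not taken to pair the samples. At the depth of the shallowest library 1 count is 0.133 CPM, well under the level of the 6 genes.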
